A study of Mus musculus with 2 samples.

Results

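The germ-line genes Tcfl5, Tuba3a and Tuba3b were followed across cell classes of the dentate gyrus, the neuron-producing part of the hippocampus, from mice at P5, in 1 control (wild type) library and 1 Setdb1_cKO library. The members were taken by gene symbol from the genes of the deposited tables, and all 3 were listed there (3 of 32235 genes that matched the annotation). They had been chosen from their own values in these libraries, so their levels and ratios are a description and carry no test. Each genotype had 1 library of dissociated dentate gyrus, profiled by droplet 3′ single-cell RNA sequencing that counts unique molecular identifiers (UMIs). The Cre driver of the conditional knockout, the deleted exons and the number of animals were not stated.

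Tcfl5 encodes a basic helix-loop-helix transcription factor known from meiotic spermatocytes. Tuba3a and Tuba3b encode alpha-tubulin isotypes that are known from the testis, where microtubules build the spindle and the sperm tail. Setdb1 encodes a methyltransferase that places trimethylation on lysine 9 of histone H3, a mark of silent chromatin that covers many retroelements and some germ-line genes in somatic cells.

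The control library held 14397 barcodes with 82393428 UMIs and the Setdb1_cKO library 12060 barcodes with 87845965 UMIs, of which 10798 and 9378 cells with medians of 5928 and 6982 UMIs were kept. Setdb1 itself was at 42.7 UMIs per 1000000 UMIs (CPM) in control and 20.3 CPM in Setdb1_cKO, and whether its counted 3′ end lies outside the deleted part is not known. Xist and the Y-linked Ddx3y differed between the libraries (16 and 94368 UMIs, and 4185 and 0 UMIs), so genotype and sex cannot be told apart. The libraries shared 39 barcodes among kept cells. Cells were placed in 22 classes by marker genes, and each class name means cells resembling that type by those markers. Marker scores left 31.7% of control and 34.2% of Setdb1_cKO cells between classes. When all kept cells were clustered together, the cluster with the most cells of a class differed between libraries in 6 of the 22 classes. Of the gated radial glia, 498 of 611 control cells were in cluster 5 with 8 Setdb1_cKO cells, and 413 of 469 Setdb1_cKO cells were in cluster 27 with 9 control cells. Early neuroblasts were mostly in cluster 8 in control (696 of 1200 cells, with 10 of Setdb1_cKO) and in cluster 10 in Setdb1_cKO (584 of 888, with 7 of control). Late neuroblasts were mostly in cluster 7 in control (603 of 667) and in cluster 21 in Setdb1_cKO (569 of 1106), and cycling radial glia, maturing granule neurons and mural cells were the other such classes. Values of radial glia and of early and late neuroblasts therefore compare cells that for the most part lay apart. The other classes of the 6 overlapped more. Cycling radial glia had 72 control and 20 Setdb1_cKO cells in cluster 4, and 65 and 28 in cluster 11. Cluster 19 held 10 control and 47 Setdb1_cKO maturing granule neurons, and cluster 15 held 18 and 21 mural cells. Ratios are Setdb1_cKO over control after scaling to the UMI total of the class, and all intervals are exact 95% intervals for counting error only.

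Tcfl5 (ENSMUSG00000038932) lies on the reverse strand of chromosome 2 (chr2:180621956-180642708, mm10) and has 6 exons. Tuba3a (ENSMUSG00000067702) lies on the reverse strand of chromosome 6 (chr6:125278274-125286042) and Tuba3b (ENSMUSG00000067338) on its forward strand (chr6:145615757-145621479), each with 5 exons. The stretches upstream of the start sites of Tcfl5 and Tuba3a are shown because these are the members with UMIs among kept cells of the Setdb1_cKO library. Sequences come from the RefSeq promoter table (GRCm38.p6), run 5′ to 3′ on the strand of the gene (chr2:180642709-180642941 and chr6:125286082-125286331), and capitals mark TCCCGC, an E2F core, or its reverse GCGGGA, and CCAAT, the CCAAT box.
Tcfl5: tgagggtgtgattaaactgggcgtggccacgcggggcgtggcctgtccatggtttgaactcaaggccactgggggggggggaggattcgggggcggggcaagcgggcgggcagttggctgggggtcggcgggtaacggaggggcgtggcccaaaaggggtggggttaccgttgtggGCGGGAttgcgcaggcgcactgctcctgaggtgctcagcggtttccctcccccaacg
Tuba3a: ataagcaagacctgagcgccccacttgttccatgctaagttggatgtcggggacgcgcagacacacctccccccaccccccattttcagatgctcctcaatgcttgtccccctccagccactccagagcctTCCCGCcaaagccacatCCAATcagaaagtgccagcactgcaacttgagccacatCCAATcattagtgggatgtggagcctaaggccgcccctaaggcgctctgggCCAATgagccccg

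The promoter windows of the members differed in composition. Over 300 bases around the RefSeq start, the Tcfl5 window held 35 CpG dinucleotides at 73% G and C, and 6.95% of 32851 promoters in the table held as many CpGs. Tuba3a had 12 CpGs and Tuba3b 16, and 39.6% and 33.0% of promoters held as many. On either strand, TCCCGC matched in all 3 windows, as in 6562 of the 32851 promoters. CCAAT matched 3 times in Tuba3a, 2 times in Tuba3b and not in Tcfl5, and was in 37.4% of promoters; 7.13% held both motifs. The canonical E-box CACGTG matched in none of the 3 and in 7.15% of promoters, and its variant CACGCG matched in Tcfl5 and in 9.27%. TTTGAA matched in Tcfl5 and Tuba3b and in 17.9%, and GGGCGG matched 5 times in Tcfl5, 1 time in Tuba3a and in 35.7%. These motifs were chosen after the sequences were seen, and a match is not a binding site.

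The tubulin windows matched each other at 203 of 332 aligned positions (61.1%). Both held the following 30 bases with the E2F core and the first CCAAT box, shown because both motifs lie there in the same spacing. They lie at chr6:125286174-125286203 (reverse) and chr6:145615854-145615883 (forward), and the latter is upstream of the RefSeq start but inside the first exon of GENCODE vM21. Counted from the 5′ end with Tuba3a first, the stretches differ by G14T, C15T and C16T.
Tuba3a: cctTCCCGCcaaagccacatCCAATcagaa
Tuba3b: cctTCCCGCcaaatttacatCCAATcagaa

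The pair is close in coding sequence, so part of the reads of either gene cannot be told apart. The coding sequences are 1353 bases long and differ at 41 positions (97.0% identity), and the last 147 coding bases are the same in both. In the last 500 bases of the transcripts, 90 of 411 windows of 90 bases occur in both genes. A read within such a window cannot be assigned to 1 gene, and 34 windows of Tuba3b also occur in the pseudogene Gm5366.

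Over all kept cells, Tcfl5 and Tuba3a were higher in the Setdb1_cKO library and Tuba3b had no UMI. Tcfl5 had 346 UMIs (4.77 CPM) in control and 6434 UMIs (84.2 CPM) in Setdb1_cKO, a ratio of 17.6 (15.8 to 19.7). Tuba3a had 2 and 482 UMIs (0.0276 and 6.31 CPM), a ratio of 229 (63.0 to 1890). Thus 2 of the 3 members were at least 2-fold higher, where 5.7% of 17472 genes with at least 30 UMIs were. The UMIs came from 316 and 3878 cells for Tcfl5 and from 2 and 266 cells for Tuba3a. Over every deposited barcode, Tuba3b had 0 UMIs in control and 2 in Setdb1_cKO, beside 2 and 543 of Tuba3a. Of the 411 windows near the 3′ end, 90 are shared by the pair, and 34 of Tuba3b but 0 of Tuba3a also occur in Gm5366. Loss of reads of either gene cannot be seen in these counts, and its part in the low Tuba3b counts was not tested.

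Tcfl5 was higher in Setdb1_cKO in glial, progenitor and neuronal classes alike. It had at least 30 UMIs over both libraries in 17 of the 22 classes and was at least 2-fold higher in each of the 17. The share of measured genes that far up was 2.41% in radial glia and 1.36% in their cycling cells, 2.76% and 1.95% in astrocytes, 1.73% and 2.55% in glial intermediate progenitors, and 1.24% and 1.37% in Eomes intermediate progenitors. It was 2.07% in early neuroblasts, 3.55% in late neuroblasts, 2.39% in maturing granule neurons, 2.77% in pyramidal or hilar neurons, 2.01% in Cajal-Retzius cells and 3.35% in GABAergic neurons. In oligodendrocyte progenitors it was 0.87%, in ependymal cells 7.17% and in blood cells 4.45%. In radial glia, the stem cells of the dentate gyrus, it had 37 UMIs (11.0 CPM) in 611 control cells and 464 UMIs (144 CPM) in 469 Setdb1_cKO cells, a ratio of 13.1 (9.37 to 18.9) between cells of clusters 5 and 27 for the most part. Astrocytes had 25 and 994 UMIs (2.94 and 152 CPM), a ratio of 51.6 (34.7 to 80.1). The levels in Setdb1_cKO radial glia and astrocytes had overlapping intervals (131 to 157 and 142 to 161 CPM), while the control levels did not (7.71 to 15.1 and 1.90 to 4.34 CPM). The larger ratio in astrocytes therefore went with a lower control level. Cluster 0 held 881 of 1255 control and 389 of 805 Setdb1_cKO astrocytes. Among these cells Tcfl5 was at 2.68 and 159 CPM (17 and 552 UMIs), a ratio of 59.4 (36.8 to 103).

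The lineage that leads to granule neurons had lower Tcfl5 levels than radial glia and astrocytes in the Setdb1_cKO library. Eomes intermediate progenitors, the neuron-producing progenitors marked by the transcription factor Eomes, had 12 and 88 UMIs (4.68 and 66.6 CPM) outside the cell cycle and 47 and 262 UMIs (9.19 and 94.7 CPM) among cycling cells. Early neuroblasts had 20 and 314 UMIs (2.97 and 55.6 CPM), a ratio of 18.7 (11.9 to 31.0). In cluster 12, which held early neuroblasts of both libraries (191 and 221 cells), the counts were 1 and 77 UMIs. In late neuroblasts the numbers were 6 and 484 UMIs (1.53 and 60.0 CPM), a ratio of 39.2 (17.9 to 107) that rests on 6 control UMIs. Maturing granule neurons had 3 and 59 UMIs, the latter at 60.9 CPM, and the intervals of these last 3 classes in Setdb1_cKO overlapped.

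Other neurons also carried Tcfl5. Pyramidal or hilar neurons went from 37 UMIs (11.9 CPM) to 845 UMIs (101 CPM), a ratio of 8.48 (6.10 to 12.1). Cajal-Retzius cells, early-born neurons of the outer layer marked by reelin, went from 3 UMIs (0.904 CPM) to 275 UMIs (75.0 CPM), a ratio of 83.0 (28.1 to 405). GABAergic neurons had 2 and 38 UMIs, the latter at 36.8 CPM. Their interval (26.0 to 50.4 CPM) lay below that of Cajal-Retzius cells (66.4 to 84.4 CPM).

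Vascular, mesenchymal and tissue immune cells held the lowest Tcfl5 levels of the Setdb1_cKO library. Summed over endothelial cells, mural cells, fibroblasts, microglia and border macrophages, Tcfl5 had 4 UMIs (0.613 CPM) in control and 46 UMIs (8.71 CPM) in Setdb1_cKO, a ratio of 14.2 (5.19 to 54.4). Microglia had 1 and 11 UMIs, endothelial cells 2 and 12, and fibroblasts 0 and 11, at least 3.19-fold higher when the control is bounded with 3 counts over the class. In mural cells, with 1 and 3 UMIs, the interval of the ratio included 1 (0.867 to 567). In each of these 5 classes, Setdb1 had a ratio whose interval included 1, as it did in 10 of the 22 classes. Oligodendrocyte progenitors were also among the 10, with Setdb1 at 49.8 and 52.0 CPM, and there Tcfl5 had 9 and 37 UMIs (5.75 and 35.6 CPM), a ratio of 6.20 (2.94 to 14.6). Blood cells, which rested on 5 of 9 markers, were among them too, with Setdb1 at a ratio of 0.929 (0.490 to 1.72) and Tcfl5 at 1 and 34 UMIs (1.01 and 47.1 CPM), a ratio of 46.5 (7.81 to 1890). Of the blood cells, 23 of 91 and 43 of 88 were in the blood cluster. Border macrophages had 0 and 9 Tcfl5 UMIs (24.7 CPM), and the 50 Setdb1_cKO cells of them in cluster 23 had 1.

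**Figure D1:**
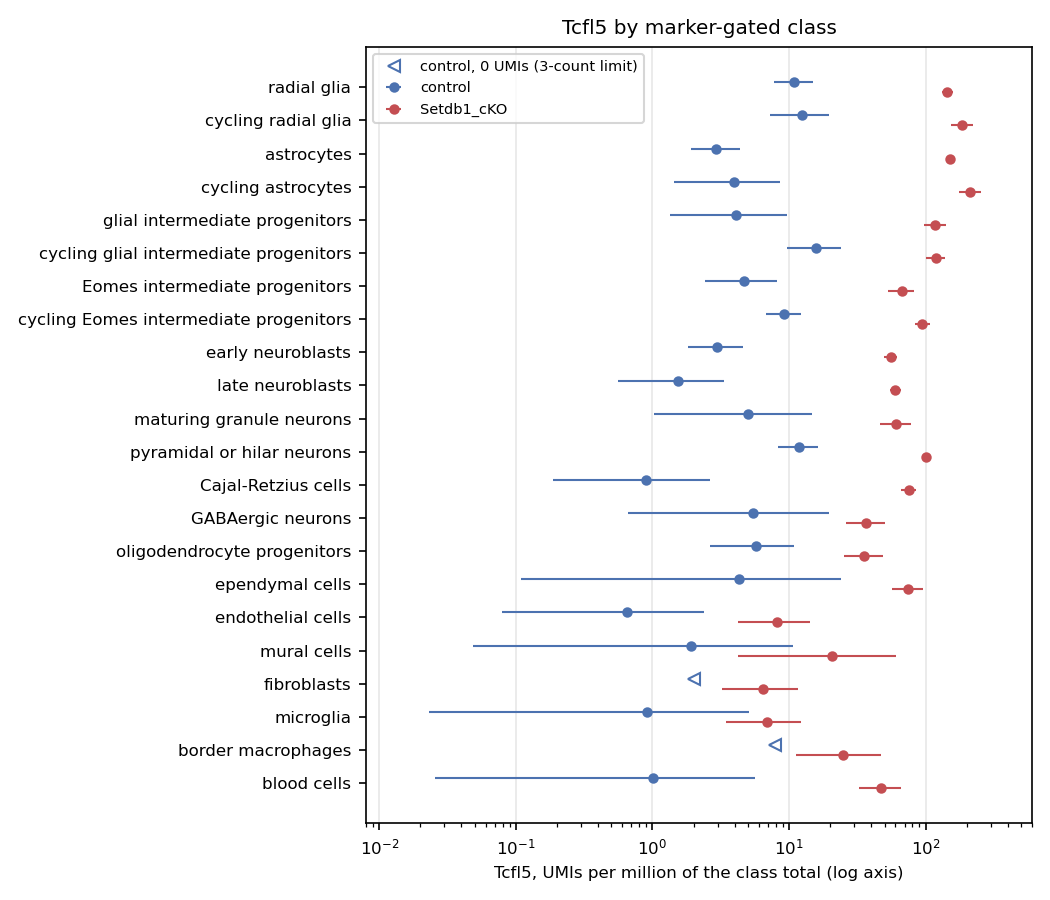
Tcfl5 level (CPM of the class total, log axis) in each of the 22 marker-gated classes, with points for the control and Setdb1_cKO libraries, exact 95% counting intervals as bars, and open triangles at the 3-count limit where control had 0 UMIs. The Setdb1_cKO points lie right of the control points in every class, between 6.47 in fibroblasts and 212 in cycling astrocytes.

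Shares of cells with a Tcfl5 UMI also differed between the libraries at equal depth. After each cell was thinned to 2000 UMIs, 27.3% of Setdb1_cKO radial glia (126 of 462; 23.3 to 31.6) and 1.85% of control radial glia (11 of 595) had a Tcfl5 UMI. The shares were 24.4% and 0.418% in astrocytes, 10.7% and 0.152% in late neuroblasts, and 12.5% and 0% in Cajal-Retzius cells, where 0 of 410 control cells allows up to 0.732%. Free RNA gives low shares in cells that lack a gene, and in Setdb1_cKO endothelial cells, with 0 of 87 cells, fibroblasts (1.03%) and microglia (1.55%) the shares were within a few cells of 0. Mural cells (0 of 28), border macrophages (2 of 56) and blood cells (1 of 53) also had few positive cells. The levels in endothelial cells, fibroblasts, microglia, mural cells and border macrophages were not set apart from free RNA. No free RNA level was estimated, and its part was not tested. The share in blood cells depended on depth, with 11 of 42 cells positive when thinned to 4000 UMIs, and a part of free RNA was not tested. Without thinning, 59.9% of Setdb1_cKO radial glia had a Tcfl5 UMI at a median of 6841 UMIs, and 4.42% of microglia at a median of 7207 UMIs. Single cells held up to 9 Tcfl5 UMIs, and 102 of the 281 positive radial glia held at least 2.

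Tuba3a UMIs in the Setdb1_cKO library were concentrated in progenitors, with the highest levels in cycling cells. Cycling cells were those with at least 5 UMIs of 20 proliferation genes. In cycling Eomes intermediate progenitors, Tuba3a had 0 UMIs in 547 control cells and 136 UMIs in 250 Setdb1_cKO cells (49.2 CPM; 41.2 to 58.2), at least 83.8-fold higher, where 1.37% of measured genes were at least 2-fold higher. Cycling glial intermediate progenitors had 0 and 69 UMIs (52.0 CPM; 40.4 to 65.8), at least 23.2-fold higher, where 2.55% of measured genes were. These were the only 2 named classes in which Tuba3a reached 30 UMIs, and their intervals overlapped.

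The non-cycling counterparts had lower Tuba3a levels. Eomes intermediate progenitors outside the cycle had 23 UMIs (17.4 CPM; 11.0 to 26.1) and glial intermediate progenitors 11 UMIs (10.9 CPM; 5.43 to 19.5) in Setdb1_cKO, and 0 in control. Cycling astrocytes had 20 UMIs from 9 of 47 cells (35.0 CPM; 21.4 to 54.0), while astrocytes outside the cycle had 9 UMIs in 805 cells (1.37 CPM; 0.628 to 2.61). Cycling radial glia had 12 UMIs from 5 of 66 cells (18.9 CPM), whereas 469 radial glia outside the cycle had 0 among 3232119 UMIs, which allows up to 0.928 CPM. In each of the 4 pairs the CPM interval of the cycling class lay above that of its counterpart. These intervals treat UMIs of the same cell as independent. As shares of cells thinned to 2000 UMIs, the intervals overlapped in 3 of the 4 pairs. They were 8.10% (5.02 to 12.2) against 4.26% (1.85 to 8.21) in Eomes intermediate progenitors, 6.45% (2.83 to 12.3) against 2.17% (0.451 to 6.22) in glial ones, and 1.52% (0.0384 to 8.16) against 0% (up to 0.795) in radial glia. In astrocytes they were apart, at 6.38% (1.34 to 17.5) and 0.505% (0.138 to 1.29). A difference in the share of cells was thus not detectable at that depth in 3 of the pairs. Thinned to 4000 UMIs, the Eomes pair was apart, at 16.3% (11.9 to 21.5) when cycling and 6.01% (3.04 to 10.5) outside the cycle. At that depth astrocytes stayed apart, while the intervals of glial intermediate progenitors and of radial glia still overlapped.

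Tuba3a levels were lower in neuroblasts than in Eomes intermediate progenitors. Early neuroblasts had 23 UMIs (4.07 CPM; 2.58 to 6.11), from 12 cells of which 1 held 7. Late neuroblasts had 7 UMIs (0.868 CPM; 0.349 to 1.79). Thinned to 2000 UMIs, the shares of these 2 classes had overlapping intervals, at 0.568% (0.185 to 1.32) and 0.0906% (0.00229 to 0.504). A part of free RNA in these sparse counts was not tested. Pyramidal or hilar neurons had 0 among 8403110 UMIs, which allows up to 0.357 CPM, and Cajal-Retzius cells had 1 UMI. Ependymal cells, endothelial cells, mural cells, microglia and border macrophages had 0, so that 7 of the 22 classes held no Tuba3a UMI in Setdb1_cKO. The 2 control UMIs were in 1 astrocyte and 1 endothelial cell.

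The 4 cycling classes together held 237 of the 482 Tuba3a UMIs (49.2%) but 6.94% of all UMIs of the Setdb1_cKO library, at 44.7 CPM and at least 139-fold above control. They held 10.2% of the Tcfl5 UMIs. A further 156 Tuba3a UMIs (32.4%) were in cells between classes, which held 30.6% of all UMIs. After thinning to 2000 UMIs, 8.10% of cycling Eomes intermediate progenitors (20 of 247; 5.02 to 12.2) had a Tuba3a UMI, beside 0 of 541 control cells, which allows up to 0.555%. Among radial glia outside the cycle the number was 0 of 462, which allows up to 0.649%. Unthinned, 63 of 250 cycling Eomes intermediate progenitors (25.2%) had a UMI at a median of 10750 UMIs per cell, and 34 of the 63 held at least 2.

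**Figure D2:**
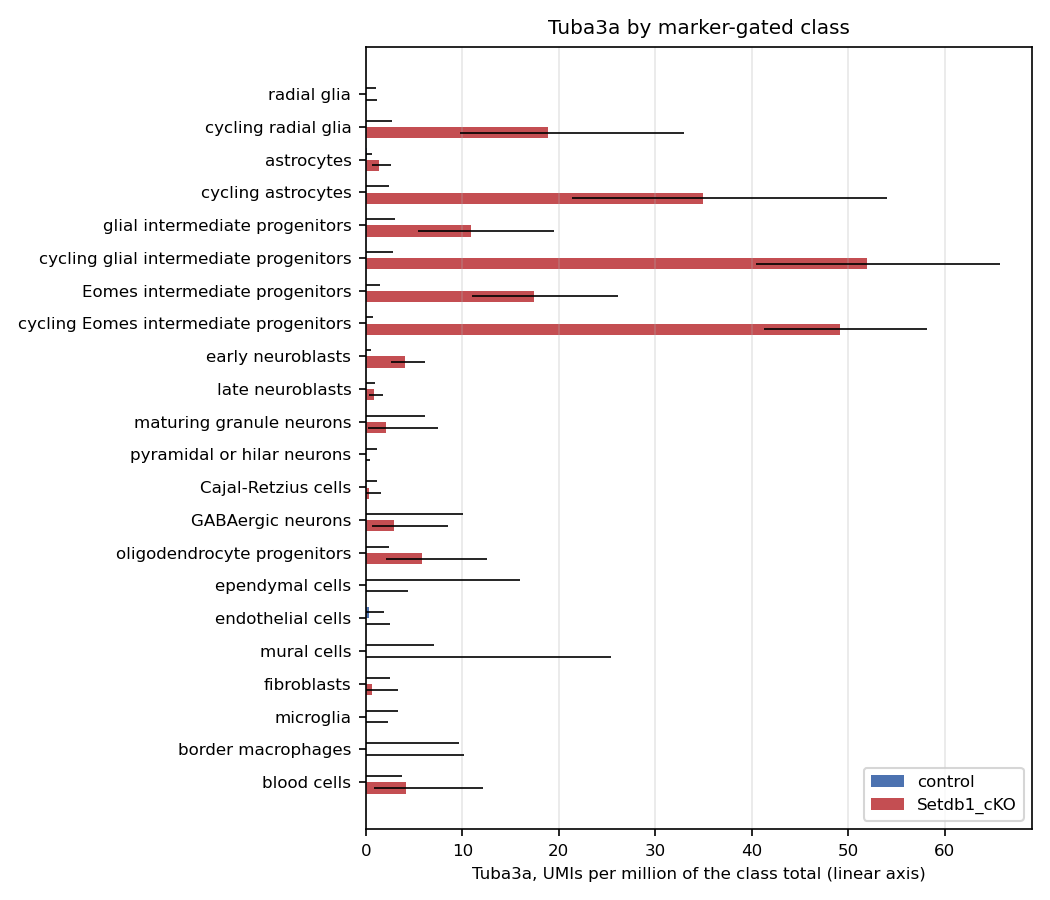
Tuba3a level (CPM of the class total, linear axis from 0) in the 22 marker-gated classes, with bars for the control and Setdb1_cKO libraries and exact 95% counting intervals. The highest Setdb1_cKO bars are cycling glial intermediate progenitors (52.0) and cycling Eomes intermediate progenitors (49.2), while radial glia and pyramidal or hilar neurons have none.

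The patterns of the 2 detected members were set side by side within the Setdb1_cKO library. For every 100 Tcfl5 UMIs there were 51.9 Tuba3a UMIs in cycling Eomes intermediate progenitors, 43.7 in cycling glial intermediate progenitors and 26.1 in Eomes intermediate progenitors outside the cycle. The number was 16.5 in cycling astrocytes, 10.2 in cycling radial glia and 9.24 in glial intermediate progenitors outside the cycle. In early neuroblasts it was 7.32, in late neuroblasts 1.45 and in astrocytes 0.905. Oligodendrocyte progenitors were at 16.2, on 6 Tuba3a UMIs from 3 of 187 cells. Blood cells and GABAergic neurons were at 8.82 and 7.89, on 3 Tuba3a UMIs each. Of the UMIs of both genes, Tuba3a made up 34.2% (29.5 to 39.1) in cycling Eomes intermediate progenitors and 0 of 464 in radial glia (up to 0.792%). Among the classes with Tuba3a UMIs its level ran from 0.273 CPM in Cajal-Retzius cells to 52.0 CPM, and Tcfl5 ran from 6.47 to 212 CPM over all 22.

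Cells with at least 2000 UMIs were also grouped by the proliferation UMIs left after thinning to 2000 UMIs. These groups differ from the cycling split, which used unthinned counts. CPM in each group comes from the unthinned counts. In Eomes intermediate progenitors of both kinds, Tuba3a was at 13.3 CPM in cells with 0 proliferation UMIs (7.47 to 22.0), 42.5 CPM with 1 to 2, 21.1 CPM with 3 to 5 (7 UMIs in 39 cells) and 54.2 CPM with 6 or more (44.7 to 65.2). Tcfl5 stood at 67.6, 85.0, 103 and 92.1 CPM in the same 4 groups. In glial intermediate progenitors Tuba3a was at 11.6, 29.4, 54.3 and 56.3 CPM, with Tcfl5 at 120, 96.7, 163 and 120 CPM. The lowest and highest groups had non-overlapping intervals for Tuba3a in both families, and overlapping ones for Tcfl5 in both. Tcfl5 was not level everywhere: in astrocytes it was at 153 CPM (143 to 163) with 0 and 232 CPM (188 to 283) with 6 or more proliferation UMIs. Between the gated classes, too, the Tcfl5 intervals were apart for Eomes intermediate progenitors (53.4 to 82.0 CPM, and 83.6 to 107 when cycling) and astrocytes (142 to 161, and 176 to 253 when cycling). Radial glia had no Tuba3a UMI in 403 cells with 0 and 76 cells with 1 to 2 proliferation UMIs after thinning. Cells with more proliferation UMIs were also deeper, with medians of 6985 and 11912 UMIs in the lowest and highest groups of Eomes intermediate progenitors. At an equal 2000 UMIs, Tuba3a was in 3.82% (1.42 to 8.13) and 9.94% (5.90 to 15.4) of the cells of these groups, and in 1.72% (0.209 to 6.09) and 4.23% (0.880 to 11.9) of glial intermediate progenitors. These intervals overlapped in both families, so the thinned shares did not separate the groups.

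**Figure D3:**
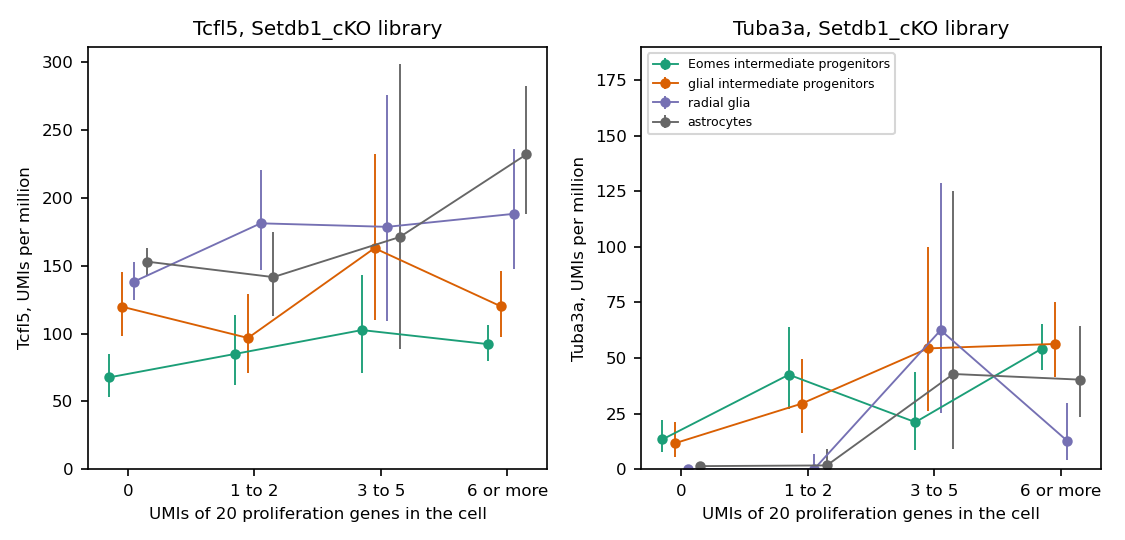
Tcfl5 (left) and Tuba3a (right) in the Setdb1_cKO library, in CPM (linear axes from 0), for 4 families of cells grouped by the number of UMIs of 20 proliferation genes, with exact 95% counting intervals. Tuba3a in Eomes intermediate progenitors goes from 13.3 to 54.2 between the lowest and highest groups, and radial glia have no Tuba3a UMI below 3 proliferation UMIs.

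Within a class, cells with and without a Tcfl5 UMI carried Tuba3a at shares with overlapping intervals. In the 4 cycling classes, thinned to 2000 UMIs, 7.84% (3.45 to 14.9) of cells with a Tcfl5 UMI and 6.28% (24 of 382; 4.07 to 9.20) of cells without one had a Tuba3a UMI. In the non-cycling intermediate progenitors the shares were 6.25% (3 of 48) and 2.88% (8 of 278). At these counts a difference of a few percentage points was not detectable.

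Genes next to the members had ratios nearer to 1. Of 9 measured genes around Tcfl5, none was at least 2-fold higher or lower over all kept cells, with ratios from 0.645 for Slc17a9 to 1.87 for the neurotensin receptor gene Ntsr1. Col9a3, on the forward strand, overlaps the 3′ end of Tcfl5 by 234 bases and went the other way, with 4143 and 3278 UMIs and a ratio of 0.751 (0.717 to 0.786). Whether counting used strand was not stated, so it is not known whether reads of the 2 genes there were kept apart. Around Tuba3a, 9 measured genes had ratios from 0.577 for the lymphotoxin receptor gene Ltbr to 1.73 for the sodium channel gene Scnn1a, and none reached 2-fold. Around Tuba3b, 1 of 7 measured genes did, 2010013B24Rik with 8 and 24 UMIs, and Lmntd1, the gene nearest to Tuba3b, had 142 and 92 UMIs. Neighbours past 2-fold were also counted within 5 single classes. Around Tcfl5, 2 of 7 were higher in astrocytes, where 2.76% of measured genes were, 1 of 6 was higher in late neuroblasts (3.55% of genes), and 1 of 6, Col9a3 at 0.356, was lower in pyramidal or hilar neurons (2.59%). Around Tuba3a, Vamp1 was lower in radial glia (26 and 7 UMIs; 2.05% of genes) and Tnfrsf1a in cycling Eomes intermediate progenitors (26 and 5 UMIs; 2.56%). Around Tuba3b, Bhlhe41 was higher in radial glia (26 and 50 UMIs, ratio 2.01; 2.41%).

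**Figure D4:**
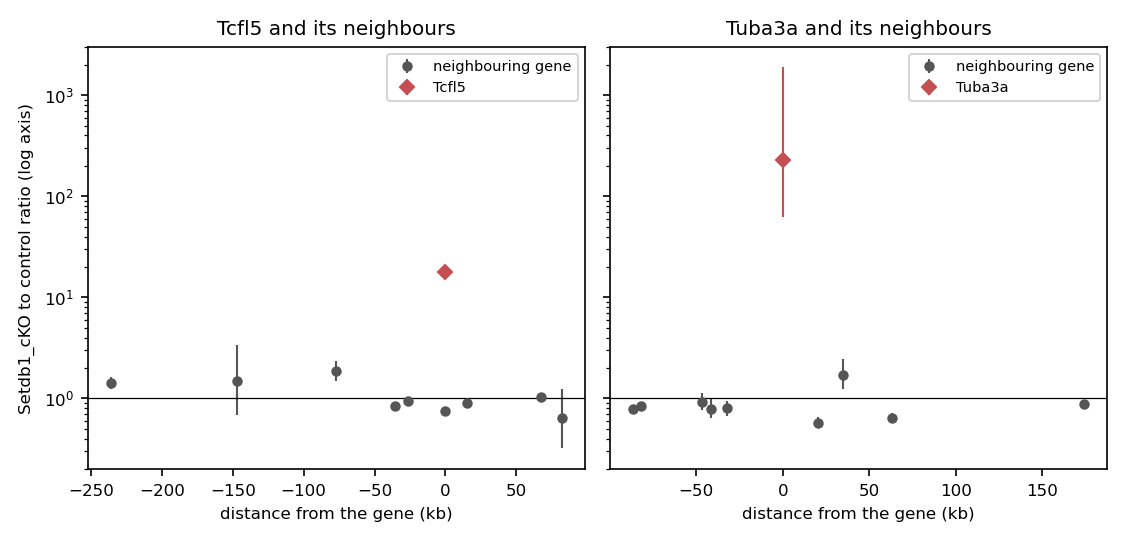
Setdb1_cKO to control ratio over all kept cells (log axis) of Tcfl5 (left) and Tuba3a (right), drawn as diamonds, and of their measured neighbours (circles) against distance from the gene in kb, with exact 95% counting intervals. The neighbours lie between 0.577 and 1.87, below Tcfl5 at 17.6 and Tuba3a at 229.

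Over all kept cells, Tuba3a was the 1 alpha tubulin gene that stood apart from its family. Of 5 measured alpha tubulin genes, 1 was at least 2-fold higher (Tuba3a) and 0 lower over all kept cells, where 5.7% of all measured genes were higher and 2.47% lower. Tuba1a, the main alpha tubulin of young neurons, had 200519 and 190019 UMIs (ratio 0.899), and Tuba1b and Tuba1c had ratios of 0.765 and 0.533. The median log2 ratio of the list was -0.15, against -0.05 over all measured genes. Next to these levels Tuba3a was low: over all kept cells of the Setdb1_cKO library it was at 6.31 CPM, while Tuba1a was at 2486 CPM. Over all kept cells, of 11 measured beta and other tubulins, 0 were higher and 1 lower (Tubb6, ratio 0.496). None of 15 genes for tubulin folding and modification was higher or lower there. Single classes differed: in cycling glial intermediate progenitors, 1 of 7 beta and other tubulins was higher and 1 lower (209 and 173 of 8207 genes). In endothelial cells, where Tuba3a was not measured, 1 of 3 alpha tubulins was higher (96 of 9769 genes). In maturing granule and in pyramidal or hilar neurons 1 of 3 was lower (324 of 7162 and 293 of 11306 genes). The 3′ counts carry no length term, so these levels compare UMIs and not protein.

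Tcfl5 was likewise the 1 measured gene of its list past 2-fold. Among 6 measured E-box factors and their partners it was the 1 gene at least 2-fold higher and none was lower, where 5.7% of all measured genes were higher and 2.47% lower. The E proteins Tcf3, Tcf4 and Tcf12, which pair with other helix-loop-helix factors, had ratios of 0.762, 1.01 and 0.909. The germ-cell factors Sohlh1, Sohlh2, Figla and Stra8 had at most 1 UMI in either library. Of 12 measured subunits of the E2F6 and MGA repressor complex, which silences germ-line promoters, none was higher or lower, with Mga, Max and E2f6 at 1.04, 1.15 and 0.953. Among 9 measured genes for Setdb1 and its partners, 2 were higher (Atf7ip at 2.52 and Atf7ip2 with 10 and 23 UMIs) and 1 lower, Setdb1 itself, against the same 5.7% and 2.47%. The median log2 ratios of these 3 lists were -0.06, 0.01 and 0.03.

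Genes of spermatocytes and spermatids were mixed. Of 20 listed, 10 were measured, 5 were at least 2-fold higher and 0 lower, and the median log2 ratio was 1.18, unchanged with the gene at 0 control UMIs set to its bound. Over all measured genes 5.7% were higher and 2.47% lower, with a median of -0.05. They were Mael (0 and 55 UMIs, at least 17.4-fold), Tex101 (1 and 184), Piwil2 (6 and 25), Meig1 (246 and 955) and Spag6l (180 and 727), of which Meig1 and Spag6l are also genes of motile cilia. Ciliated ependymal cells were 34 in control and 87 in Setdb1_cKO, and their part in these counts was not tested. Genes of haploid sperm heads such as Prm1 (3 and 0 UMIs), Prm2 (0 and 0) and Tnp1 (1 and 0) were near 0 in both libraries.

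The genes whose level followed each member most closely were found over 36 points, 18 classes in 2 libraries, among 15086 genes. These points share libraries and depth, so the correlations of log2(CPM + 1) are a description. For Tcfl5 they were the lincRNA Gm7967 (r = 0.93), Gm11884 (0.90), Mnd1 (0.90), which acts in meiotic recombination, Gm48619 (0.89), Ddx4 (0.88), the germ-cell RNA helicase Vasa, Gm49795 (0.88) and Adk (0.85), an adenosine kinase. Mnd1 had 548 and 13103 UMIs and Ddx4 17 and 1153. Mnd1 was at 197 CPM in Setdb1_cKO radial glia and at 152 CPM in late neuroblasts, high in both as Tcfl5 was.

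For Tuba3a the closest genes were Gm4969 (r = 0.90), Gm36551 (0.86), Stag3 (0.85), Meioc (0.81), Smc1b (0.81), Gm1110 (0.81) and Cd209c (0.80). Stag3 and Smc1b encode parts of meiotic cohesin, and Meioc encodes a regulator of meiotic entry. Meioc had 1 and 160 UMIs (0.196 and 57.8 CPM) in cycling Eomes intermediate progenitors and 0 and 1 UMI in late neuroblasts. Stag3 had 21 and 129 UMIs in the former class (4.11 and 46.6 CPM) and 11 and 48 in the latter (2.81 and 5.95 CPM). Both were high in cycling Eomes intermediate progenitors, as Tuba3a was, and Stag3 kept a low level in late neuroblasts. Meioc did not follow Tuba3a in every class. It had 16 UMIs (4.95 CPM) in Setdb1_cKO radial glia outside the cycle, where Tuba3a had 0. In Eomes intermediate progenitors outside the cycle Meioc had 6 UMIs (4.54 CPM), beside 17.4 CPM for Tuba3a. The X-linked gene among the 8 of each member is not named, since the libraries differed in sex. Ranked by Spearman correlation, 6 of the 8 were the same for Tcfl5 and 4 of the 8 for Tuba3a.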

How the data were processed

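The deposited values are raw UMI counts for each gene and barcode. The file headers name Cell Ranger 7.1.0, and the genome build in the submitters' processing notes is mm10; Seurat is named there without a role. Annotation release, intron and strand settings and cell calling were not stated. Coordinates are from GENCODE vM21 (GRCm38, the assembly of mm10; 32235 of 32285 identifiers matched).

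Cells with at least 1000 UMIs, 500 genes and at most 10% mitochondrial UMIs were kept, and Scrublet (scanpy 1.11.5, expected rate 8%) marked 5.14% and 5.64% of scored barcodes as doublets, which were removed. Each cell took the class with the highest mean z-score of its markers over log CP10K values, capped at 5, if that mean reached 0.5 and led the next class by 0.2; 22.6% and 22.7% of cells lay within 0.1 of these limits. Radial glia, astrocytes and both kinds of intermediate progenitor were split at 5 proliferation UMIs.

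The members and gene lists were chosen with earlier results of these data known. The gates were also settled with Tcfl5 and Tuba3a sums per class in view. Another scoring rule (markers scaled to a percentile, no minimum) and 3 other pairs of minimum and margin were tried, and the z-score rule was kept because it placed more cells in radial glia and late neuroblasts. The proliferation split, its extension to astrocytes and glial intermediate progenitors, the sums over classes and the motifs were chosen after member values or sequences were seen. The count of classes with higher Tcfl5 was redefined, after its value was seen, from intervals above 1 to measured and at least 2-fold higher. The members were in no marker list.

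UMIs were summed per class and library and scaled to CPM. Intervals are exact Poisson, conditional Poisson and Clopper-Pearson intervals at 95% (scipy 1.17.1). With 1 library per genotype no test was made. A gene was measured at 30 UMIs over both libraries, log2 ratios used a pseudocount of 0.5 UMI, and bounds against 0 UMIs used 3 counts. Named genes were the members, Setdb1, list members that reached 20 CPM in a class, the 5 nearest genes on each side, and the 8 genes most correlated with each member (at least 100 UMIs, classes of at least 50 cells, without mitochondrial, haemoglobin, ribosomal and Y-linked genes and Xist; X-linked genes stayed in the ranking and are not named). Other list members are named beside their counts after their values were seen. Interval and calling steps were checked on simulated data.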

Additional observations from a re-analysis of the deposited data

How the results depend on the processing

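Values were recomputed under 14 other settings, of which 7 were added after seeing the data (other proliferation limits, gate limits and the other scoring rule). The Tcfl5 ratio in radial glia ranged from 11.8 to 16.8 and Tuba3a in cycling Eomes intermediate progenitors of Setdb1_cKO from 46.8 to 54.4 CPM. In radial glia outside the cycle Tuba3a stayed between 0 and 0.279 CPM. The Tcfl5 ratio in late neuroblasts was 113 at a gate margin of 0.4, where 1 control UMI was left. With classes from joint Leiden clusters, Tcfl5 was at least 2-fold higher in 11 of the 11 classes where it was measured, and Tuba3a was then at 36.6 CPM in glial intermediate progenitors, a cluster that holds their cycling cells too, and at 30.3 CPM in the Eomes cluster not named as cycling. No ratio of Tcfl5 changed direction among these settings. No paired analysis was possible because each genotype had 1 library, and no library could be left out. Depth limits the rare classes: control held 34 ependymal cells and 38 GABAergic neurons.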
